A study of Mus musculus with 3 samples.

Results

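Iron transport, storage and sensing were described through 10 genes in tumours of the mouse mammary line NDL(UCD). The genes were the rows of the deposited tables whose symbol equals Trf, Tfrc, Lcn2, Fth1, Ftl1, Slc40a1, Slc11a2, Ireb2, Aco1 or Heph. All 10 were found once in each table and carried the status OK in all 3 tumours, among 21881 gene symbols in all. They were chosen by their function and with their FPKM in these same tumours already known, so their levels and their differences between tumours are given as a description with no test. FPKM are fragments scaled by transcript length and by library total, which allows levels to be compared between genes.

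The data are total RNA profiles of 3 snap-frozen tumours, each from a different female mouse of strain FVB/N (FVB/NJ in the protocol). Cells of the single transplantable line, 100000 to 2000000 per injection, had been placed in mammary fat pads of mice 6 to 8 weeks old. The tumours were 5 to 10 mm wide when collected. The NDL model is known for an activated Neu (Erbb2) transgene driven by a mouse mammary tumour virus promoter. The 3 tumours form 1 group, with no normal gland, untreated group or second line beside them. The fat pads were uncleared, so host epithelium, fat, vessels and immune cells can contribute RNA to a tumour piece. In such bulk samples fewer cells of a type and less RNA per cell cannot be told apart.

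Cells take up iron mainly as iron-loaded transferrin bound to the transferrin receptor, reduce it in endosomes and move it to the cytosol through the transporter DMT1. Iron that is not used is stored in ferritin, a shell of heavy and light chains, or leaves the cell through ferroportin, with a copper oxidase that lets it bind transferrin again. The iron regulatory proteins IRP1 and IRP2, encoded by Aco1 and Ireb2, bind stem-loops called iron-responsive elements in the mRNAs of these proteins when iron is scarce. A stem-loop before the coding sequence then blocks translation, and stem-loops after it protect the transferrin receptor mRNA from decay. Mammary epithelium is known to secrete transferrin, lactoferrin and lipocalin 2.

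The stem-loops are shown because they are what several of the 10 mRNAs share beyond their place in iron handling. They were searched in GENCODE vM21 transcripts as a C, 5 bases, the loop CAGTGN whose last base is not G, and 5 bases that pair with the first 5 (G with T allowed), on the sense strand. Of the 10 genes, 4 held such a match in an untranslated region. It lay before the coding sequence in 3 of them, and Tfrc held 4 copies after it. Each line gives 29 bases as DNA, 5′ to 3′ on the mRNA strand, with the loop in capitals.
Fth1: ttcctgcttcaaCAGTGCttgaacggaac
Ftl1: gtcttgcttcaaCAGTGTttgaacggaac
Slc40a1: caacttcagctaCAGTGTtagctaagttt
Tfrc 1: aattatcggaagCAGTGCcttccataatt
Tfrc 2: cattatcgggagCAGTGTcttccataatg
Tfrc 3: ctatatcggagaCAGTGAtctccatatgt
Tfrc 4: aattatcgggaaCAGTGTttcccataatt

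On GRCm38 the Fth1 window is at chr19:9982732-9982760 on the plus strand, the Ftl1 window at chr7:45459779-45459807 on the minus strand and the Slc40a1 window at chr1:45925465-45925493 on the minus strand. The 4 Tfrc windows run from chr16:32631219-32631247 to chr16:32631710-32631738 on the plus strand. The element ended 115, 153 and 207 bases before the coding sequence in Fth1, Ftl1 and Slc40a1. The Fth1 and Ftl1 windows were alike at 26 of 29 bases, and each was alike to the Slc40a1 window at 13. The pattern searched is that of iron-responsive elements, already known in such mRNAs. The shares that follow are therefore background and no test. Across all genes the match was rare. It was found before the coding sequence in 0.101% of 20873 genes, and in 0.163% of 7353 genes whose longest 5′ untranslated region has 253 to 795 bases, the span of the 3 genes here. After the coding sequence it was found in 0.467% of 20987 genes and in 1.16% of the 3952 whose region is at least as long as the 2458 bases of Tfrc. No window of the 10 genes held it on the opposite strand. The other 6 genes, including Slc11a2, held no such match, which says only that these letters are not there.

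Some facts of the libraries touch every value below. The deposited intervals imply 11698588, 12417558 and 13377729 fragments in tumours 1, 2 and 3, so the intervals of abundant genes are narrow and cover counting error only. Differences between tumours followed GC content across all genes. From tumour 1 to tumour 3 the median difference on the log2(FPKM + 0.1) scale was -1.09 in the 2169 genes with the lowest GC content and 0.80 in the 2169 with the highest, among 5 classes of equal size. Values are therefore also given with each tumour's GC and length trends removed, a step that would also take away any biological difference that runs along GC content. It acts on differences between tumours only. A GC effect shared by all 3 libraries would stay in every comparison between genes. Median-of-ratios scaling raised the median gene of tumour 1 by 0.22 log2 units and changed the other tumours by -0.08 and -0.13. As to the tissue, all 6 luminal epithelial markers were above 1 FPKM, led by Krt18 at 526 ± 143 FPKM (mean ± SD, n = 3 tumours, as throughout). Markers of cell types that the host can supply were found too. All 5 fibroblast markers (led by Col3a1) and all 7 macrophage markers (led by Lyz2) were above 1 FPKM, as were 2 of 5 adipocyte markers (led by Fabp4). Of all 18028 symbols tested 54.2% were called above that level. Fibroblast markers summed to 164, 287 and 255 FPKM.

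The 10 genes spanned more than 4 orders of magnitude on the per-length scale. Trf, Lcn2 and Fth1 were above 1000 FPKM on average, as were only 14 of 21054 genes whose locus has at least 300 bp. Ftl1 (90.1 ± 27.3 FPKM), Tfrc (42.4 ± 25.0 FPKM) and Aco1 (14.1 ± 4.77 FPKM) came next. Ireb2 (5.88 ± 2.05 FPKM), Slc11a2 (4.33 ± 1.99 FPKM) and Slc40a1 (1.99 ± 0.925 FPKM) followed, and Heph (0.342 ± 0.178 FPKM) was lowest. Of the 9 neighbouring pairs in this order, 6 did not overlap over the 3 tumours. The pairs that overlapped were Ftl1 and Tfrc, Ireb2 and Slc11a2, and Slc11a2 and Slc40a1. The median gene of the 21054 was at 1.25 FPKM.

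**Figure D1:**
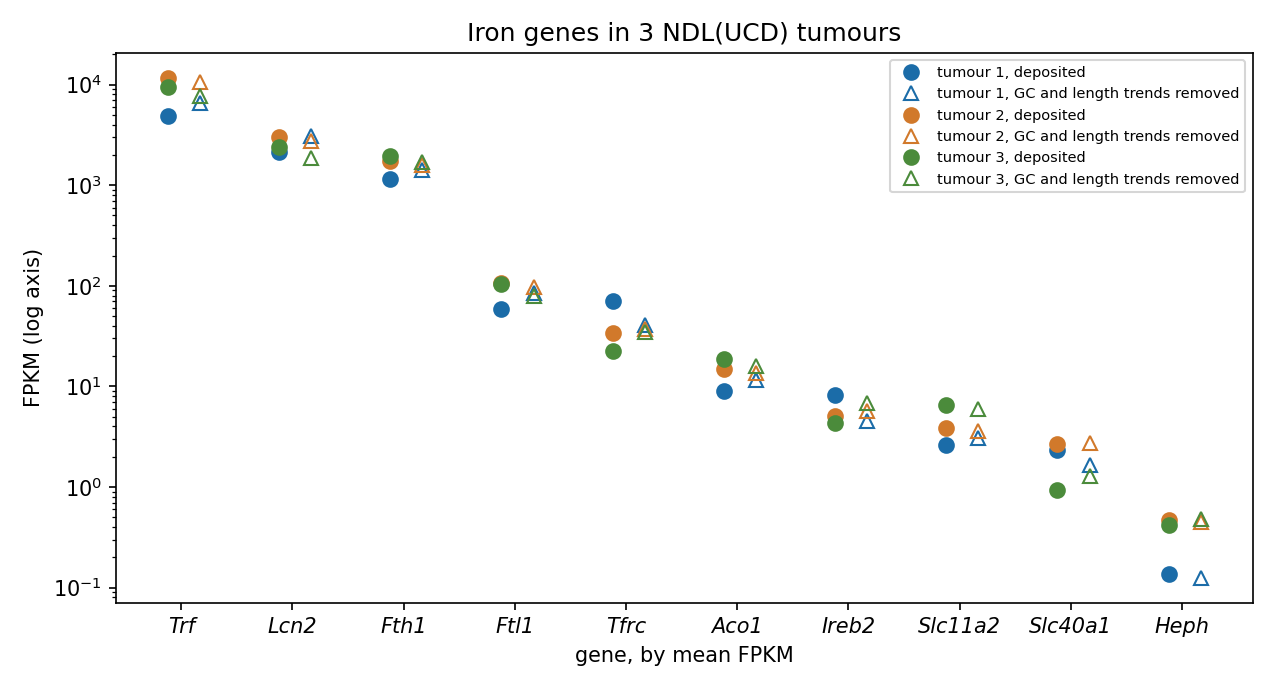
FPKM of the 10 iron genes on a log axis, with each tumour as a colour, deposited values as filled circles and values with GC and length trends removed as open triangles. Trf, Lcn2 and Fth1 stand above 1000 FPKM, and the spread of Tfrc, 70.6 to 22.7 FPKM as deposited, shrinks to 41.1 to 34.8 FPKM with the trends removed.

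Among the extracellular iron carriers, Trf encodes transferrin (mm9 chromosome 9, 103111206 to 103132616). Of the 21054 genes whose locus has at least 300 bp, Trf was the highest in tumours 2 and 3 and the second highest in tumour 1. It was deposited at 4915, 11633 and 9551 FPKM in tumours 1, 2 and 3. Tumour 1 was lowest and the deposited intervals of the 3 tumours did not overlap. Trf alone made up 1.59%, 3.19% and 2.74% of the summed FPKM over the 21699 symbols with status OK in all 3 tumours. That sum includes loci under 300 bp. Loci of at least 300 bp held 197572, 251544 and 254375 FPKM, of which Trf was a larger share. Removing the trends gave 6628, 10595 and 7768 FPKM. The highest-to-lowest ratio went from 2.37 to 1.60, with the order unchanged. Hepatocytes are the main source of circulating transferrin, and their markers were low here: 0 of 5 were called above 1 FPKM, their sum was 0.482 to 2.11 FPKM, and Alb, the albumin gene, was at 0.634 ± 0.592 FPKM. Oligodendrocytes and Schwann cells also make transferrin. Of their 5 markers Sox10 (41.7 ± 4.41 FPKM) and Mbp were called above 1 FPKM and 3 below, among them the myelin gene Mog at 0.00782 ± 0.0136 FPKM. Which cells the Trf RNA came from was not tested.

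Lcn2, which encodes lipocalin 2, a protein that captures iron-loaded bacterial siderophores, was deposited at 2154, 3028 and 2402 FPKM (mm9 chromosome 2, 32240157 to 32243259). As deposited its SD was 17.8% of the mean, the smallest share among the 10 genes, and the median over genes averaging at least 1 FPKM was 27.6%. Which tumour was lowest depended on the scale. Tumour 1 was lowest as deposited, whereas tumour 3 was lowest with median-of-ratios scaling (2534, 2862 and 2183 FPKM) and with the trends removed (3057, 2752 and 1855 FPKM). On that last scale its span of 1.65-fold was above those of Tfrc, Fth1, Ftl1, Aco1, Ireb2 and Trf. Trf exceeded Lcn2 in all 3 tumours, by 1.71 ± 0.45 log2 units. Neutrophils also hold lipocalin 2. Of 6 neutrophil markers, Elane was listed at 0 in all 3 tumours, Mpo, Camp and Ngp were at 0.190 FPKM or less on average, and S100a8 and S100a9 were above 1 FPKM. The neutrophil sum was 4.74, 12.8 and 28.7 FPKM in tumours 1, 2 and 3, and its part in the Lcn2 values was not tested.

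For uptake, Tfrc, the transferrin receptor gene, was deposited at 70.6, 33.8 and 22.7 FPKM (mm9 chromosome 16, 32608982 to 32632880). Tumour 1 was highest, tumour 3 lowest, and no deposited intervals overlapped. The span was 3.10-fold. The longest Tfrc transcript has 39.8% GC, and from tumour 1 to tumour 3 Tfrc differed by -1.63 log2 units, beside a median of -1.09 in its class of GC content. Removing the trends gave 41.1, 37.1 and 34.8 FPKM, a span of 1.18-fold, whereas either rescaling widened it to 4.02- or 3.99-fold. Tfr2, the second transferrin receptor gene and a liver iron sensor (Trfr2 in the tables), was at 0.127 ± 0.0379 FPKM. Tfrc exceeded it by 7.40 ± 1.07 log2 units. Red cell precursors are rich in the receptor. Of 6 erythroid markers Hba-a1 (308 ± 30.3 FPKM) and Alas2 (2.74 ± 0.517 FPKM) were called above 1 FPKM, and 4 were called below. Among the 4 were Slc4a1 and Epb4.2 at 0.122 FPKM or less on average. Another was Hbb-b1, a globin gene like Hba-a1, at 9.55e-05 ± 2.72e-05 FPKM. Why it lay so far below Hba-a1 was not tested, so its call may not reflect the cells present. As deposited the erythroid sum over tumours 1, 2 and 3 was 286, 345 and 303 FPKM. It was 419, 312 and 229 FPKM with the trends removed, where tumour 1 was highest and tumour 3 lowest as for Tfrc. As deposited the order of the sum was not that of Tfrc. The sum was almost wholly Hba-a1, at 416, 309 and 226 FPKM with the trends removed, so its order is that of 1 gene. The part of red cell precursors in the Tfrc values was not tested.

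Slc11a2 encodes DMT1, which carries ferrous iron across the membrane (mm9 chromosome 15, 100218331 to 100253486). Its levels were 2.62, 3.86 and 6.51 FPKM. Tumour 3 was highest, and the intervals were apart. With the trends removed it was at 3.09, 3.60 and 5.93 FPKM, so the order was the same and the span went from 2.48-fold to 1.92-fold. Summed levels of 3 marker lists were also highest in tumour 3. Macrophage markers summed to 243, 437 and 902 FPKM, adipocyte markers to 60.3, 44.7 and 195 FPKM, and the neutrophil sum is given above. Their part in the Slc11a2 values was not tested. Tfrc exceeded Slc11a2 by 4.70, 3.10 and 1.79 log2 units in tumours 1, 2 and 3, and by 3.69, 3.33 and 2.54 with the trends removed.

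For storage, Fth1 encodes the ferritin heavy chain, which oxidises iron as it enters the shell (mm9 chromosome 19, 10057193 to 10059582). Its levels were 1144, 1737 and 1958 FPKM, with tumour 1 lowest and the intervals apart. After trend removal they were 1429, 1597 and 1704 FPKM, and the span went from 1.71-fold to 1.19-fold. Ftl1 encodes the light chain, which helps the mineral core to form (mm9 chromosome 7, 52713314 to 52715256). It was deposited at 58.6, 107 and 105 FPKM, where tumours 2 and 3 had overlapping intervals and tumour 1 was lower. After trend removal it was at 85.5, 96.3 and 79.4 FPKM, and tumour 3 was lowest.

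Fth1 exceeded Ftl1 by 4.18 ± 0.13 log2 units, 18.1-fold, the smallest SD of the 12 gene pairs as deposited. With the trends removed its SD was 0.21, above those of Ireb2 minus Aco1 (0.08) and Tfrc minus Tfr2 (0.14). Part of the light-chain signal is listed under a near-identical copy. Ftl2, named Ftl2-ps in GENCODE, matched the Ftl1 transcript at 545 of 552 bases (98.7%) and was deposited at 37.6, 77.3 and 64.8 FPKM. The labels and headers do not say how fragments were divided between copies, so single ferritin values are uncertain. Adding Ftl2 to Ftl1 gave 96.2, 184 and 169.9 FPKM, and Fth1 still exceeded that sum 11.9-, 9.45- and 11.5-fold. GENCODE also names 2 Ftl1 and 5 Fth pseudogenes, to which fragments of ferritin mRNA could align. Fth1 exceeded Tfrc by 4.02, 5.68 and 6.42 log2 units in tumours 1, 2 and 3, and by 5.12, 5.42 and 5.61 with the trends removed.

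For export, Slc40a1 encodes ferroportin, the only known iron exporter of mammalian cells (mm9 chromosome 1, 45964915 to 45982439). Its levels were 2.35, 2.68 and 0.938 FPKM, on 220, 241 and 94 implied fragments. Tumours 1 and 2 had overlapping intervals, and tumour 3 was lower than both. Which of tumours 1 and 2 was higher changed with median-of-ratios scaling (2.77, 2.53 and 0.852 FPKM). Without the trends the values were 1.65, 2.76 and 1.29 FPKM, and tumour 3 remained lowest at a span of 2.13-fold. Macrophages that recycle iron are known for high ferroportin. The macrophage marker sum given above was highest in tumour 3, and its part in the Slc40a1 values was not tested. Tfrc exceeded Slc40a1 by 4.31 ± 0.63 log2 units, 19.8-fold, in 3 of 3 tumours.

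Heph encodes hephaestin, a copper oxidase that works with ferroportin in gut cells (mm9 chromosome X, 93650775 to 93769823). It was the lowest of the 10 genes at 0.138, 0.468 and 0.420 FPKM, on only 14, 54 and 54 implied fragments. Tumour 1 lay below the other tumours, whose intervals overlapped, and with the trends removed the values were 0.126, 0.453 and 0.479 FPKM. The related blood oxidase gene Cp, ceruloplasmin, was far higher, at 73.7, 38.5 and 15.8 FPKM. Heph minus Cp was -6.43 ± 1.70 log2 units, negative in 3 of 3 tumours. Cp was highest in tumour 1 and lowest in tumour 3, and remained so with the trends removed (49.6, 40.1 and 22.4 FPKM). Slc40a1 exceeded Heph by 2.22 ± 1.19 log2 units.

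For sensing, Aco1 encodes IRP1, which is a cytosolic aconitase while it holds an iron-sulphur cluster (mm9 chromosome 4, 40090298 to 40146042). It was deposited at 9.06, 14.8 and 18.5 FPKM, with the 3 intervals apart. Ireb2 encodes IRP2, which is degraded when iron is plentiful (mm9 chromosome 9, 54711562 to 54760341). It was deposited at 8.22, 5.06 and 4.36 FPKM, with tumour 1 highest. The 2 genes thus ran in opposite directions over the tumours as deposited. Their base composition differs, with 52.1% GC in Aco1 and 39.0% in Ireb2. Without the trends both were lowest in tumour 1 and highest in tumour 3, Aco1 at 11.6, 13.7 and 15.8 FPKM and Ireb2 at 4.50, 5.74 and 6.87 FPKM.

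The balance of the 2 sensors depended on this step. Ireb2 minus Aco1 was -0.14, -1.53 and -2.06 log2 units in tumours 1, 2 and 3 as deposited, that is near equality in tumour 1 and 0.239 times the Aco1 level in tumour 3. Without the trends it was -1.34, -1.24 and -1.19, and the SD went from 0.99 to 0.08. Aco1 was the higher gene in all 3 tumours on either scale.

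**Figure D2:**
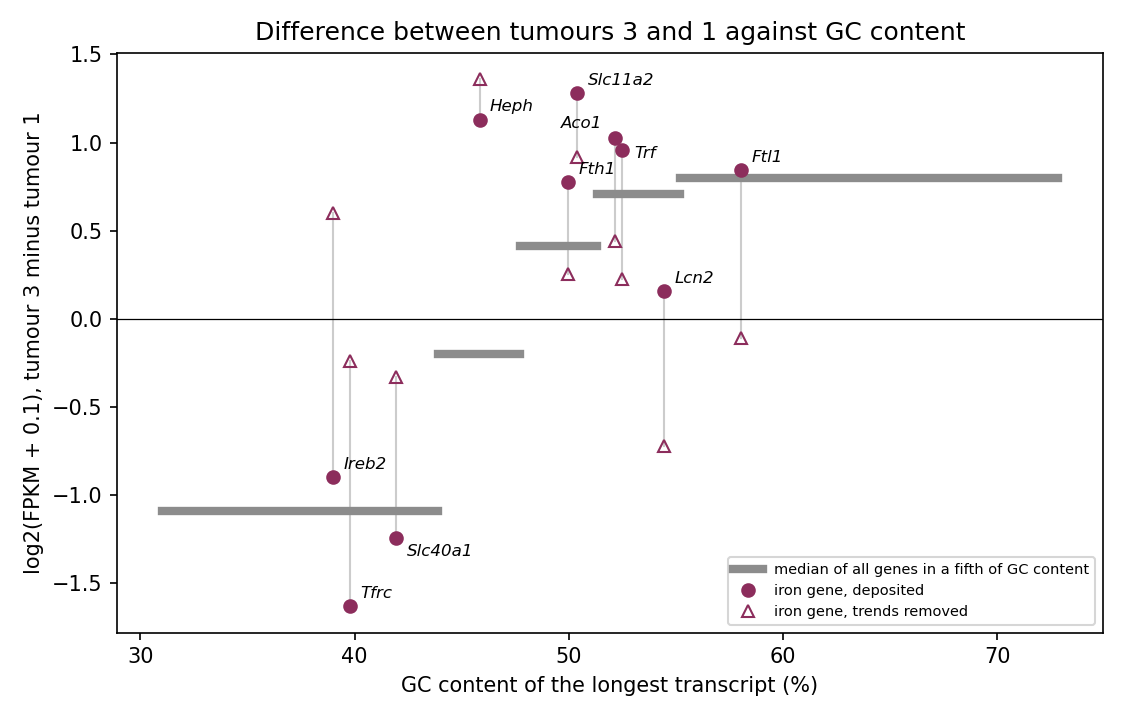
Difference of tumour 3 minus tumour 1 on the log2(FPKM + 0.1) scale against GC content of the longest transcript, for the 10 iron genes (filled circles as deposited, open triangles with trends removed) and for all genes averaging at least 1 FPKM (grey bars, the median of each of 5 classes by GC content). The grey bars climb from -1.09 to 0.80, Tfrc moves from -1.63 to -0.24, and Ireb2 moves from -0.90 to 0.60.

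Counted over the 9 iron genes that averaged 1 FPKM or more, 5 differed at least 2-fold between the highest and the lowest tumour as deposited: Trf, Tfrc, Slc40a1, Slc11a2 and Aco1. Among all 11058 such genes 32.8% did. With the trends removed only Slc40a1 did, and 17.4% of all genes. With median-of-ratios scaling it was Tfrc, Slc40a1 and Ireb2, and 28.5% of all genes. Tumour 1 was the lowest tumour for 6 of the 9 genes as deposited, against 59.7% of 11193 genes, and for 5 of the 9 with the trends removed, against 40% of genes. It was the highest for Tfrc and Ireb2 as deposited, against 28.7% of genes, and for Tfrc and Lcn2 with the trends removed, against 37.1%. Since the genes were chosen with these values known, nothing is read from these counts.

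**Figure D3:**
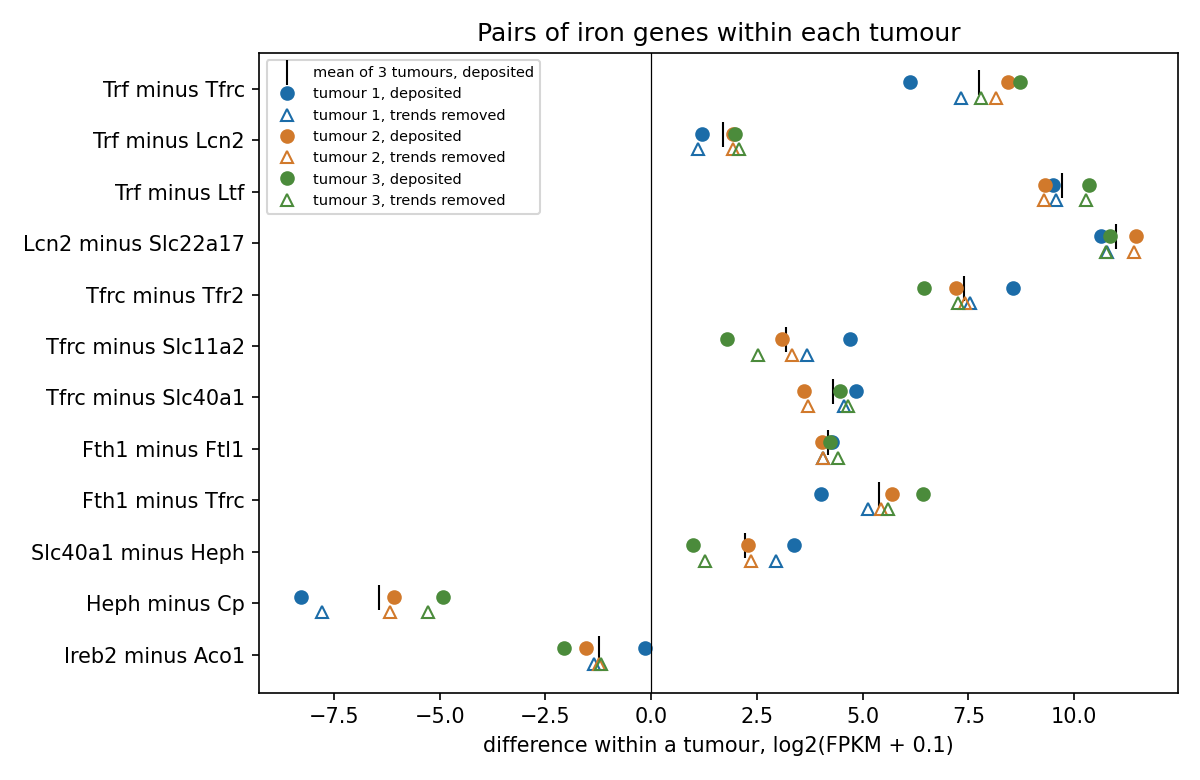
Differences between 2 iron genes within each tumour on the log2(FPKM + 0.1) scale, as deposited (filled circles, with a tick at the mean of the 3 tumours) and with GC and length trends removed (open triangles). Fth1 minus Ftl1 stays between 4.03 and 4.29 as deposited, while Ireb2 minus Aco1 runs from -0.14 to -2.06 as deposited and from -1.34 to -1.19 with the trends removed.

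The pairs plotted within each tumour share a library, so library scale cancels in them, though less fully for genes near the pseudocount of 0.1 FPKM. An effect of GC content does not cancel where the 2 genes differ in it. With 3 tumours an exact sign-flip permutation test cannot give a p below 0.25, and no p is given. Further partners were compared. Trf exceeded Ltf, the gene of lactoferrin, a milk and neutrophil relative of transferrin, by 9.72 ± 0.56 log2 units. Lcn2 exceeded Slc22a17, which encodes a lipocalin 2 receptor, by 10.98 ± 0.42 log2 units, and Slc22a17 was at 1.14 ± 0.144 FPKM. All 12 pairs had the same sign in 3 of 3 tumours, as deposited and with the trends removed.

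The genes whose course over the 3 tumours was most like that of 4 of the iron genes were sought among 3758 other genes that averaged 10 FPKM or more. Likeness was the summed squared difference of centred log2(FPKM + 0.1) values. For Trf these were Smox, 2900060B14Rik and Pam16, for Lcn2 Ybx1, St6gal1 and Ncald, and for Slc40a1 Cyp3a11, Sparcl1 and Prom1. For Tfrc they were Shoc2, Prrc2c and a symbol that the tables hold as a date. Over 3 points such likeness is easily met: 16 genes stayed within 0.1 log2 units of Trf in every tumour, 92 of Lcn2, 23 of Tfrc and 1 of Slc40a1.

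The rest of the pathway was given by a list of 71 further iron and haem genes in 6 roles. By limma on log2(FPKM + 0.1) with Benjamini-Hochberg adjustment over all 18028 symbols listed above 0, 54 were above 1 FPKM, 12 below and 3 not separated, and 2 were listed at 0 in all tumours. The 54 are 78.3% of the 69 tested, and 54.2% of all symbols were above that level and 32.5% below. The median of the list was 6.87 FPKM and that of all symbols tested 2.44 FPKM. That level is a convention and not a biological boundary. The list was chosen with earlier results of these data known, so nothing is read from its higher share or median.

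**Figure D4:**
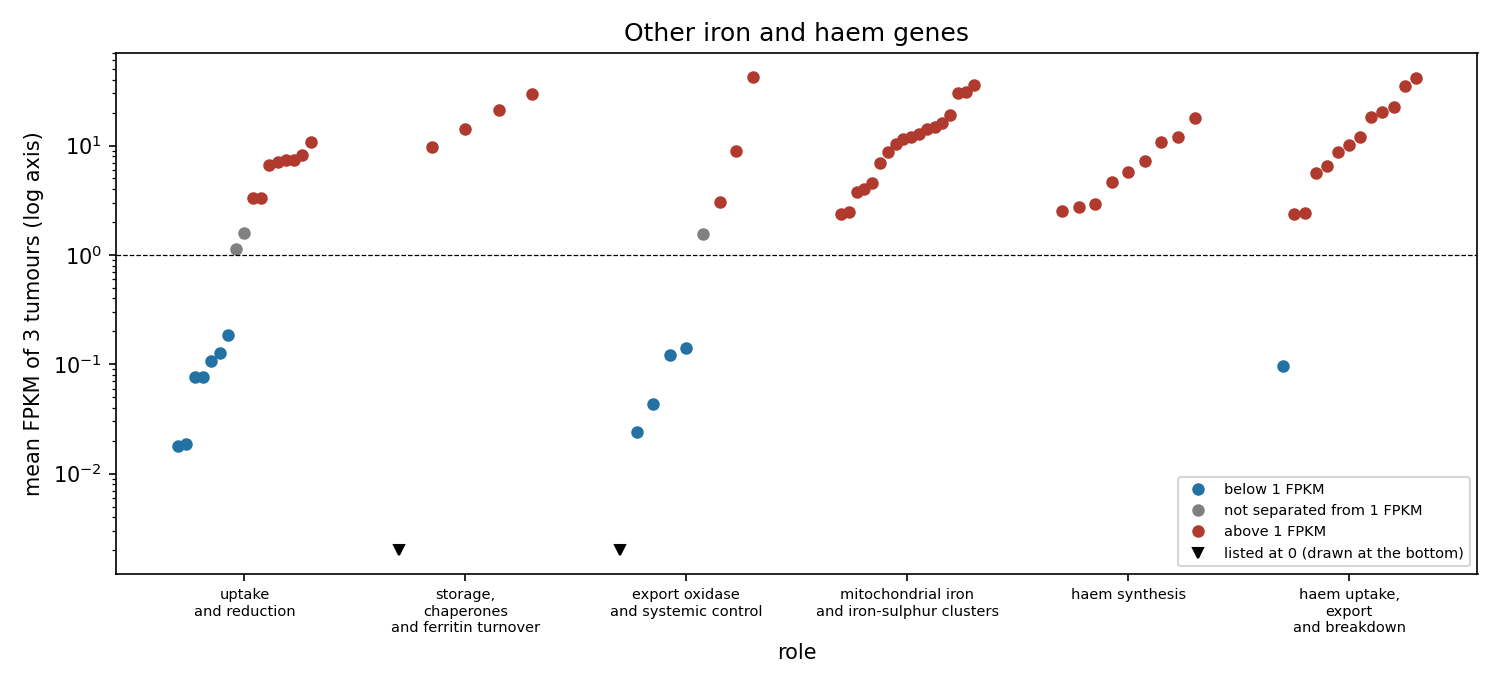
Mean FPKM over 3 tumours, on a log axis, of 71 further iron and haem genes by role, coloured by the call against 1 FPKM (dashed line). All 18 mitochondrial and 9 haem synthesis genes lie above the line, while 7 of 17 uptake and 4 of 9 export and systemic genes were called below it.

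Genes of uptake and reduction were split, with 8 of 17 above 1 FPKM and 7 below. The highest were Ltf at 6.72, 18.3 and 7.21 FPKM and Mfi2, the melanotransferrin gene, at 8.18 ± 2.18 FPKM. The lowest was Cybrd1, the iron reductase of the gut, at 0.0179 ± 0.0142 FPKM. Among export and systemic control genes 3 of 9 were above, Cp, the BMP co-receptor gene Neo1 at 8.94 ± 1.01 FPKM and Hfe, the haemochromatosis gene, at 3.07 ± 1.35 FPKM. The hemojuvelin gene Hfe2 was listed at 0 in all 3 tumours.

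Among storage, chaperone and turnover genes 4 of 5 were above 1 FPKM. Fbxl5, the iron-sensing subunit of the ligase that marks IRP2 for degradation, was highest at 30.8, 31.6 and 26.2 FPKM and exceeded Ireb2 in all 3 tumours. The iron chaperone gene Pcbp1 followed at 21.2 ± 6.85 FPKM, and mitochondrial ferritin (Ftmt) was listed at 0. All 18 genes of mitochondrial iron and iron-sulphur clusters were above 1 FPKM, led by the scaffold gene Iscu at 35.9 ± 9.98 FPKM and Bola3 at 31.1 ± 8.67 FPKM, with the carrier gene Slc25a37 lowest at 2.35 ± 0.419 FPKM. All 9 haem synthesis genes were above it too, with Urod at 17.9 ± 4.99 FPKM, the first enzyme gene Alas1 at 11.9 ± 2.23 FPKM and Ppox lowest at 2.53 ± 0.528 FPKM. Of 13 genes of haem uptake, export and breakdown 12 were above. The constitutive haem oxygenase gene Hmox2 was highest at 41.2 ± 7.72 FPKM, Mfsd7c (Flvcr2) followed at 35.1 ± 8.88 FPKM, and the haem scavenger gene Hpx was lowest at 0.0958 ± 0.108 FPKM.

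Differences between tumours in this list were called with Cochran's Q on the deposited errors and a span of at least 2-fold, which compares 3 libraries and not conditions. Of 57 genes tested 16 were called, 28.1%, against 32.5% of all 11058 genes. Tumour 1 was lowest for 10 of the 16, beside 59.7% of all genes averaging 1 FPKM or more, among them the reductase gene Steap3, Ltf, Hfe, Glrx5, Fdx1l, Nubp1, the inducible haem oxygenase gene Hmox1 and the haem-binding protein gene Hebp1. It was highest for 4, beside 28.7% of those genes, among them Slc39a8, a transporter of zinc and iron, Cp and the haem exporter gene Mfsd7b (Flvcr1). The reductase gene Steap4 and the haptoglobin gene Hp were highest in tumour 3. With the trends removed 8 of 57 were called, and 17.1% of all genes. Tumour 1 was then lowest for 3 of the 8 and highest for 1. Of these 6 were shared with the deposited calls: Ltf, Slc39a8, Steap4, Cp, Hfe and Hp. The chaperone gene Pcbp2 and the haem exporter gene Abcg2 were called with the trends removed and not as deposited. Without tumour 1 or without tumour 3 the deposited values gave 5 calls, and without tumour 2 they gave 13. Either rescaling gave 10, where median-of-ratios scaling called 28.3% of all genes. The share of all genes is not given for the other runs in this set, so nothing is read from their counts.

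Values of 5 of the shared genes follow, and those of Cp stand beside Heph. Slc39a8 was deposited at 10.7, 8.45 and 3.02 FPKM and was at 6.25, 9.27 and 4.58 FPKM with the trends removed. Hp was at 13.1, 10.05 and 37.5 FPKM and then at 18.8, 9.13 and 28.5 FPKM. Tumour 3 was lowest for Slc39a8 and highest for Hp on both. Ltf was highest in tumour 2, at 18.3 FPKM as deposited and 16.8 FPKM with the trends removed. Hfe was lowest in tumour 1, at 1.52, 3.67 and 4.01 FPKM and then 1.61, 3.46 and 4.02 FPKM. Steap4 was lowest in tumour 2, at 1.54, 0.998 and 2.18 FPKM and then 1.38, 0.960 and 2.53 FPKM. Adipocyte and macrophage marker sums were also highest in tumour 3, and their part in the Hp and Steap4 values was not tested. Hmox1, whose enzyme opens the haem ring and frees iron, was called as deposited and not with the trends removed. Its values were 3.17, 6.63 and 6.95 FPKM as deposited and 4.41, 6.02 and 5.47 FPKM with the trends removed.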

How the data were processed

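Total RNA was depleted of ribosomal RNA and made into directional random-primed libraries, per the labels' protocols. Per the file headers, what the authors deposited is 1 FPKM for each gene row, with interval bounds in FPKM and a status. TopHat, Cufflinks and mm9 are named, with no roles or versions, per the submitters' processing notes. No source used here gives the annotation or strand setting. Locus coordinates are those of the tables on mm9, written from 1.

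The 22310 rows per table gave 21881 symbols after rows of 221 repeated symbols were added. Tests left out 182 symbols that lacked status OK in some tumour. Tumours were numbered in accession order. One standard error was taken as the half-width of a deposited interval divided by 2, and implied fragments as the squared ratio of FPKM to it. These were within 0.02 of a whole number for 68.5% to 70.5% of rows under 60, so no count test was run. The series' design text states 3 different mice that carried 1 line, and what the numbers in the sample titles mark is not stated, so a shared lane or batch cannot be told apart from the tumour.

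Levels were tested with limma 3.58.1 (R 4.3.3) on log2((FPKM + 0.1)/(1 + 0.1)) against 0, intercept only, with trend and robust moderation and an adjusted p under 0.05. Cochran's Q (2 degrees of freedom) was run on genes averaging at least 1 FPKM. GC and length came from the longest GENCODE vM21 transcript, matched by name or synonym for 98.2% of symbols, and lowess trends (span 0.3, statsmodels 0.14.6) were fitted on genes averaging at least 1 FPKM whose locus spans at least 300 bp. Both tests and the trend removal were also run on simulated data. For Cochran's Q and the trend removal these held counting noise only, with a straight-line GC trend. For the level test every gene had the same noise SD. Such runs do not show how the steps act on real differences between tumours. Stem-loop sequences and their coordinates are from GENCODE on GRCm38 and were joined to the tables by gene name only. Older symbols were used for Tfr2, Meltf, Flvcr1, Flvcr2 and Adgre1.

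The 10 genes, the lists and the pairs were chosen with earlier results of these data known. The named genes are the 10 genes, the genes of the pairs, the 2 highest and the lowest of each role, genes called different between tumours, the 3 most alike genes, and the highest gene of each marker list; some of them are not reported here. Fbxl5 against Ireb2, Ftl2 and some markers were chosen after their values were seen.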

Additional observations from a re-analysis of the deposited data

How the results depend on the processing

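The 12 pair differences kept their sign under every alternative run. Those were pseudocounts of 1 and 0.01, both rescalings, a filter at 0.5 FPKM (9 pairs), removal of GC and length trends, the highest row of a repeated symbol and the omission of each tumour. Several of these runs could hardly change a pair. Rescaling multiplies both genes of a tumour by the same factor, and trend removal nearly keeps each gene's mean over the tumours. Omitting 1 of 3 tumours cannot flip a sign that all 3 share, nor move a mean by 1 SD. The size of the pair differences moved by more than 1 SD only with a pseudocount of 1. Lcn2 minus Slc22a17 was then 10.19 and Tfrc minus Tfr2 was 5.11 log2 units. The pairs with Heph, a gene near the pseudocount, also depended on it, though by less than their wide SDs. Slc40a1 minus Heph was 2.22 as reported, 1.11 with a pseudocount of 1 and 2.54 with 0.01. Heph minus Cp was -6.43, -4.78 and -6.83 in the same order. The mean FPKM of the 10 genes moved by less than 1 SD under every alternative run. Omitting a tumour could not move it by more. The filter and the highest row of a repeated symbol changed no value of these genes, so those runs are no check on them. The count of listed genes above 1 FPKM stayed within 1.5 times of 54 throughout. The count below fell to 0 with the filter at 0.5 FPKM, which leaves such genes out. Listed genes called different between tumours numbered 16 as reported, 10 with median-of-ratios scaling, 10 with equal totals over loci of at least 300 bp, 8 with trends removed, 34 with a fold of at least 1.5, and 5 to 13 with 1 tumour left out. Shares of all genes stand above for the deposited, trend-removed and median-of-ratios values only, so nothing is read from the other counts. No paired analysis was possible because the tumours form a single group. Depth limits Heph and Slc40a1 most.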
